A study of Homo sapiens with 7 samples.

Results

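Signals of 6 replication-dependent histone genes, H1-2, H2AC6, H2BC5, H2BC9, H2BC12 and H2BC21, were followed through 7 cultures of HT1080, an established human fibrosarcoma line. The genes were taken by name, and every probe set that the platform annotation gave to one of them alone was used. That gave 7 probe sets of 54675 on the array, with H2BC5 read by 2 of them and each other gene by 1. The genes had been selected on their mean signal over these same arrays, which had to pass 269, the median over the 19775 annotated genes, so their levels are given as a description. No detection calls were at hand, so passing that signal filter does not show that a transcript was detected. The choice is not complete either. Among 35 other replication-dependent histone genes with a probe set of their own, H2BC6, H2AC14, H4C11 and H2BC4 had mean signals of 1809, 494, 397 and 309 and also passed. The gene just outside the filter was H1-3 at 257, and just inside it among the chosen genes was H2BC21 at 474.

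Each culture was 1 array and 1 group, so no difference below has a replicate error or a p-value. Catechin was given at 11.25 ng/ml, taxifolin at 6.25 ng/ml, epicatechin at 6.25 ng/ml and resveratrol at 2195 ng/ml, each for 2 h. A further culture received pycnogenol-positive serum and another control serum, both at 5% for 2 h, and the last culture was labelled as having no treatment. Pycnogenol is a pine bark extract, and the labels describe its serum as coming from treated patients. Catechin and epicatechin are stereoisomers of a flavan-3-ol, taxifolin is a dihydroflavonol, and resveratrol is a stilbene. The labels do not say where the control serum came from, nor whether the untreated culture had the medium change that the others had. What that step did to the signals cannot be told apart from the compound or serum. The growth medium held fetal bovine serum, and the labels leave out whether the replacement medium did, so the 5 arrays other than the serum ones are called arrays without added serum.

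Median signals of the arrays ran from 114 to 136 on the deposited linear scale. Over the 9888 genes at or above the filter, the standard deviation (SD) of log2 differences was 0.235 to 0.282 in the 10 pairs of arrays without added serum and 0.323 to 0.387 in the 10 pairs that set a serum array against one of those. Of 10 mesenchymal markers, 9 passed the filter, led by VIM, the intermediate filament vimentin, at a median signal of 48089, while S100A4 stood at 245. None of 6 epithelial and none of 4 endothelial markers passed. Of 6 blood cell markers on the array, HBB, the beta globin gene, alone passed. It read 394 with catechin, 299 with taxifolin, 339 with epicatechin, 413 with resveratrol, 522 with pycnogenol serum, 382 with control serum and 227 untreated, so its untreated array was the lowest. PTPRC, the common leukocyte antigen, did not exceed 79.7, and the highest values of the other 4 were 189 for CD3E, 178 for ITGAM, 77.8 for LYZ and 66.1 for CD14.

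Histones package DNA into nucleosomes, in which pairs of H2A, H2B, H3 and H4 form the core and H1 binds the linker DNA. Genes of the replication-dependent kind lie in clusters and are transcribed mainly in S phase, when new DNA has to be packaged. Their messages usually end in a stem-loop bound by SLBP in place of a poly(A) tail, but several of the genes can also yield polyadenylated messages. Labelling for arrays of this kind commonly starts from the poly(A) tail, and the labels name only a kit from the array's maker. The coding sequences of H2B genes are close copies of each other. On these arrays a probe set name that ends in _s_at marks probes shared by related transcripts, and _x_at marks probes that can also match other sequences.

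Promoters of the H2B genes are shown because their probe sets gave most of the values below. Each line holds the 150 bases before the annotated start, from RefSeq on GRCh38.p14, 5′ to 3′ on the gene's strand. Capitals mark the octamer ATTTGCAT, which POU2F1 binds in H2B promoters, the CCAAT box and the letters TATAA of a TATA box, each searched on both strands.
H2BC5, chr6:26157971-26158120, plus strand: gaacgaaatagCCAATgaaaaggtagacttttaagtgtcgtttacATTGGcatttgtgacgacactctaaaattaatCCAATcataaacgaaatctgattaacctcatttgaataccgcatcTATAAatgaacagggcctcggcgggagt
H2BC9, chr6:26251464-26251613, plus strand: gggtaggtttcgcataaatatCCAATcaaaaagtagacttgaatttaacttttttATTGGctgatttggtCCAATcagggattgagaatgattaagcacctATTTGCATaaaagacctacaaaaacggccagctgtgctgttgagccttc
H2BC12, chr6:27146859-27147008, minus strand: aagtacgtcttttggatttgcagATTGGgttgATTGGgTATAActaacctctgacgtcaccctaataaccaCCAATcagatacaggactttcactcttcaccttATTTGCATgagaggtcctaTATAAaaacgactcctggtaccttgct
H2BC21, chr1:149886683-149886832, minus strand: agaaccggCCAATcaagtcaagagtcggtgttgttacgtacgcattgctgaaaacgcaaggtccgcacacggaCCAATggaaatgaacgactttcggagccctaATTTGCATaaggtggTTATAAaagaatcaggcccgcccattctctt
The octamer began 46 bases before the start in both H2BC12 and H2BC21 and 49 bases before it in H2BC9. H2AC6 held it on the opposite strand, from 130 to 123 bases before the start, and H2BC5 and H1-2 held no exact copy in this window. In all, 4 of the 6 genes had it, against 0.985% of 27305 RefSeq promoters of the same length. The CCAAT letters stood in all 6, against 24.4% of promoters, and TATAA in 4 of the 6, against 12.7%. In H2BC21 the TATAA letters overlap on both strands. A match is a description of the letters, and no binding was measured here.

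H1-2 encodes a linker histone and had the smallest range of the 6. The signal of its probe set, 209398_at, was 3511 with catechin, 3580 with taxifolin, 3879 with epicatechin, 3796 with resveratrol, 3125 with pycnogenol serum, 3651 with control serum and 3472 untreated. The highest array was 1.24-fold above the lowest, the pycnogenol serum array. The other 6 arrays lay close together, and each gap between neighbours in their order was at most 0.056 on the log2 scale.

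H2AC6, a core H2A gene, was low with control serum. Its probe set, 215071_s_at, read 2211 with catechin, 2324 with taxifolin, 1817 with epicatechin, 2342 with resveratrol, 1854 with pycnogenol serum, 1298 with control serum and 1916 untreated. The control serum array stood 0.49 (log2) below the next array, epicatechin, while the 3 highest arrays, those of catechin, taxifolin and resveratrol, lay within 0.083 of each other.

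H2BC5, a core H2B gene, was read by 2 _x_at probe sets that ordered the arrays differently. The first, 209911_x_at, gave 1687 with catechin, 1589 with taxifolin, 1585 with epicatechin, 2111 with resveratrol, 1923 with pycnogenol serum, 1587 with control serum and 1405 untreated. The second, 222067_x_at, gave 1060 with catechin, 1456 with taxifolin, 1270 with epicatechin, 1565 with resveratrol, 1531 with pycnogenol serum, 1361 with control serum and 1459 untreated. Resveratrol and pycnogenol serum were highest on both probe sets, in that order. The lowest array was the untreated one on the first and the catechin one on the second.

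H2BC9 and H2BC12, both core H2B genes, had the same 2 arrays at the bottom. H2BC9 (208546_x_at) read 1069 with catechin, 1138 with taxifolin, 785 with epicatechin, 1039 with resveratrol, 1036 with pycnogenol serum, 965 with control serum and 797 untreated. H2BC12 (209806_at) read 17278 with catechin, 16397 with taxifolin, 13776 with epicatechin, 17077 with resveratrol, 15989.5 with pycnogenol serum, 15873 with control serum and 13536 untreated. For both genes the epicatechin and untreated arrays differed by 0.021 to 0.025 (log2), and the next array, control serum, stood 0.28 above them for H2BC9 and 0.20 for H2BC12. The first H2BC5 probe set also had these as its lowest arrays, but its epicatechin array was 0.0021 below control serum.

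H2BC21, a core H2B gene outside the chromosome 6 cluster, on chromosome 1, had the widest range. Its probe set, 202708_s_at, read 436 with catechin, 635 with taxifolin, 478 with epicatechin, 676 with resveratrol, 451 with pycnogenol serum, 423 with control serum and 317 untreated. Taxifolin and resveratrol were highest and the untreated array lowest, 0.42 (log2) under the next. The arrays between them, from control serum at the low end to epicatechin, spanned 423 to 478. Its highest array was 2.14-fold above its lowest, and it was the 1 gene of the 6 with a range of at least 2-fold, which 6.93% of all genes above the filter reached. The median range was 0.56 (log2) over the 6 genes and 0.47 over all genes above the filter.

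**Figure D1:**
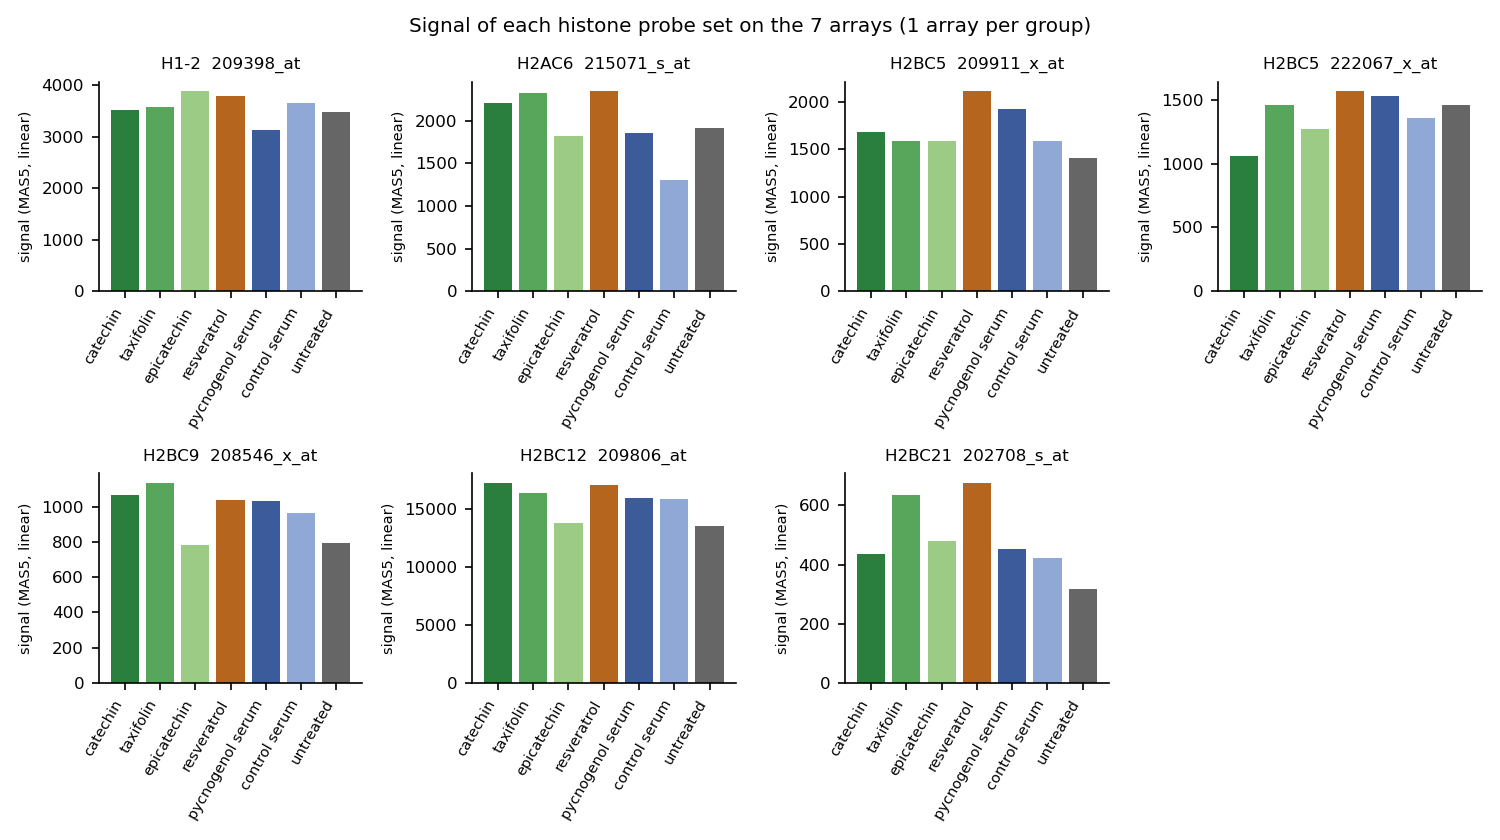
Bars give the deposited MAS5 signal (linear scale, axis from 0) of each of the 7 histone probe sets on each array, 1 array per group, so there are no error bars. H2BC21 reads 676 with resveratrol and 317 untreated, H2AC6 is lowest with control serum at 1298, and H1-2 stays between 3125 and 3879.

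Against the untreated array, all 6 genes read higher with catechin, taxifolin and resveratrol, and H2BC21 alone passed 2-fold. For H2BC5 these counts use the first probe set, 209911_x_at. With catechin, 6 of 6 genes lay above 0, against 57.6% of all genes, with a median log2 difference of 0.31 against 0.035 over all genes. The differences ran from 0.016 for H1-2 to 0.46 for H2BC21, and 0 of 6 reached 2-fold, which 0.455% of all genes did in either direction. On the second H2BC5 probe set that gene was at -0.46 with catechin, and on the mean of both at -0.099, so 5 of 6 would lie above 0. With taxifolin, 6 of 6 lay above 0, against 57.2% of all genes, and the median was 0.28 against 0.032. H2BC21 was higher by 1.00 (log2), or 2.01-fold, and so 1 of 6 passed, against 0.222% of all genes higher by at least 2-fold. Pairwise loess normalization put H2BC21 at 0.99 there and ended that call. On the second H2BC5 probe set that gene was at -0.0031 with taxifolin. With resveratrol, 6 of 6 lay above 0, against 54.8% of all genes, and the median was 0.36 against 0.025. H2BC21 was higher by 1.09, or 2.14-fold, again 1 of 6, against 0.415% of all genes. The shares past 2-fold were larger among the 1393 genes with means less than 2-fold above the filter, where H2BC21 lies, at 1.15% for taxifolin and 2.3% for resveratrol.

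After H2BC21, the next differences were 0.59 for H2BC5 on its first probe set with resveratrol and 0.51 for H2BC9 with taxifolin. H2BC12 differed by 0.35 with catechin, 0.28 with taxifolin and 0.34 with resveratrol. Of 738 other genes whose mean signal was within 0.5 (log2) of H2BC12, 0.949% were as high or higher with catechin, 3.52% with taxifolin and 2.30% with resveratrol. For H2BC21 the corresponding shares of 1447 genes were 9.33% with catechin, 0.898% with taxifolin and 0.760% with resveratrol. Shares for the other members differed by gene and compound. For H2BC5 on its first probe set the shares of 1922 genes were 14.2% with catechin, 21.3% with taxifolin and 1.249% with resveratrol. For H2BC9 the shares of 1750 genes were 6.17%, 2.06% and 8.06% in the same order. For H1-2 the shares were 56.7% with catechin, 46.6% with taxifolin and 27.7% with resveratrol, and for H2AC6 19.3%, 7.49% and 10.3% in the same order.

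With epicatechin, 5 of the genes lay between -0.076, for H2AC6, and 0.17, for H2BC5 on its first probe set. H2BC21 was at 0.60. Of the 6 genes 4 lay above 0, against 57.3% of all genes, with a median of 0.093 against 0.032. At 2-fold, 0 of 6 passed, against 0.314% of all genes in either direction. On the second H2BC5 probe set that gene was at -0.20 with epicatechin, and the median of the 6 genes was then 0.0023. At a threshold of 1.5-fold, H2BC21 would pass with epicatechin, against 1.49% of all genes higher, and H2BC5 and H2BC21 with resveratrol, against 2.29%. H2BC5 would pass only on its first probe set, at 1.503-fold, since its second was at 1.07-fold. The 4 compound arrays share the untreated array as reference, so a low signal there moves all of them together. All 4 compound arrays lay above the untreated array for H1-2, H2BC5, H2BC12 and H2BC21, or 4 of 6 genes, against 25.9% of all genes, where H2BC5 was read by its first probe set. On the second, 3 of the 4 compound arrays lay below untreated. The untreated array was the lowest of all 7 for H2BC5, H2BC12 and H2BC21, or 3 of 6, against 16.9% of all genes, a count made after the values were seen. This too rests on the first H2BC5 probe set, since on the second the untreated array was not the lowest and read 1459, against 1060 with catechin. HBB was lowest there too, and its part in these results was not tested. Another reference was the mean of the other arrays without added serum, which holds the untreated array and the other compound arrays. A shift that the compounds share is made smaller by that choice. Against this mean, H2BC21 stood at 0.47 with taxifolin and 0.58 with resveratrol, and no gene reached 2-fold. The median of the 6 genes was then 0.057 with catechin, 0.14 with taxifolin, -0.15 with epicatechin and 0.18 with resveratrol.

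Taxifolin and epicatechin, which were given at the same concentration and time, differ, among other points, in a ketone on the central ring that epicatechin lacks. They were the 1 pair of compounds compared directly. Taxifolin minus epicatechin was 0.54 for H2BC9, 0.41 for H2BC21, 0.35 for H2AC6, 0.25 for H2BC12, 0.0033 for H2BC5 on its first probe set and -0.12 for H1-2. The median was 0.30 against 0.00066 over all genes, 5 of 6 lay above 0 against 50.1% of all genes, and 0 of 6 reached 2-fold against 0.324% in either direction. With 1 array each, no interval of these differences can be given. Catechin, the stereoisomer of epicatechin, was given at a higher concentration, so their values stand side by side only in the signals above.

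**Figure D2:**
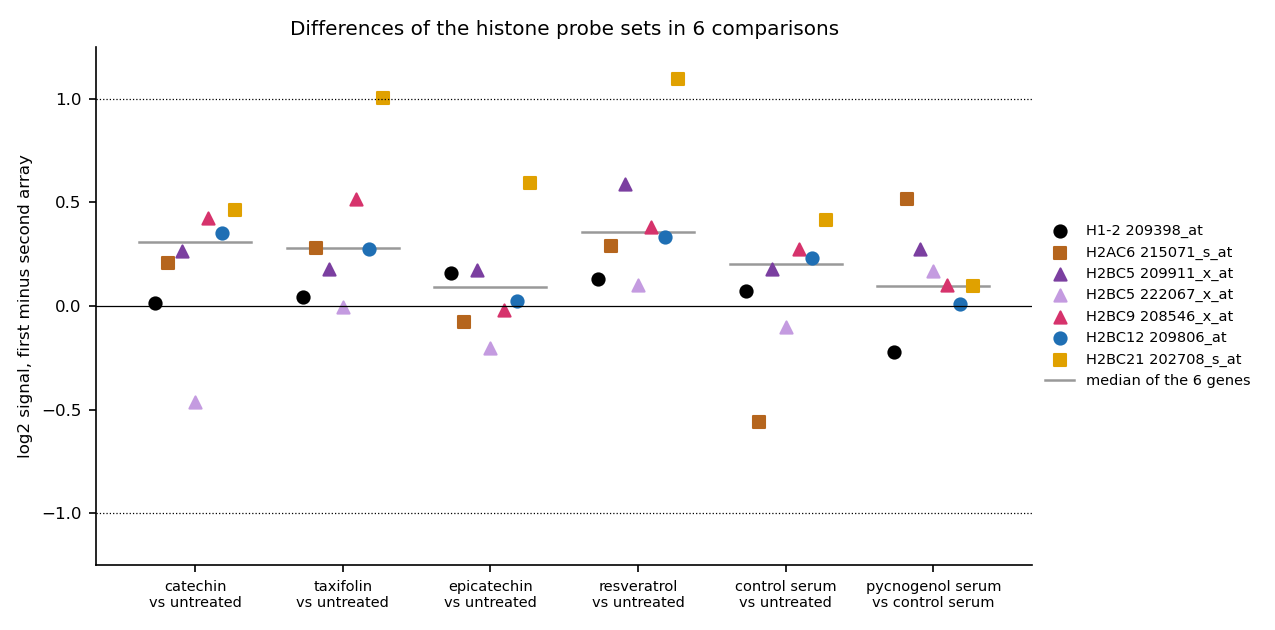
Points give the log2 signal difference, first minus second array, of each histone probe set in 6 comparisons, with circles for _at, squares for _s_at and triangles for _x_at. Grey bars are medians of the 6 genes, from 0.093 with epicatechin to 0.36 with resveratrol, and dotted lines mark 2-fold, which H2BC21 alone passes, at 1.00 with taxifolin and 1.09 with resveratrol.

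The serum arrays were also set against the arrays without added serum. For 0 of the 6 genes did both serum arrays lie outside the 5 arrays without added serum, against 29.6% of all genes above the filter. The same held for 0 of the 7 probe sets, against 27.3%. With so few genes, these counts do not set the members apart from other genes. With control serum against untreated, 5 of 6 genes lay above 0, against 51.3% of all genes, with a median of 0.20 against 0.0076. With H2BC5 read by its first probe set, H2AC6 was the exception at -0.56, and H2BC21 was highest at 0.42. On the second H2BC5 probe set that gene was at -0.10, so it would lie below 0 too. With 0 of 6 past 2-fold against 1.2% of all genes in either direction, that count is no finding about these genes. Against the mean of the 5 arrays without added serum the median was -0.031.

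With pycnogenol serum against control serum, H2AC6 was higher by 0.51, or 1.43-fold, and H1-2 was at -0.22. The other differences were 0.28 for H2BC5 on its first probe set, 0.10 for H2BC9, 0.095 for H2BC21 and 0.011 for H2BC12. In all, 5 of 6 lay above 0 against 51.6% of all genes, the median was 0.099 against 0.0082, and 0 of 6 passed 2-fold against 0.536% in either direction. This comparison shares the control serum array with the one before, in which H2AC6 was low. On the signals themselves, H2AC6 read 1854 with pycnogenol serum, 1298 with control serum and 1916 untreated, so the control serum array was the one that stood apart.

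**Figure D3:**
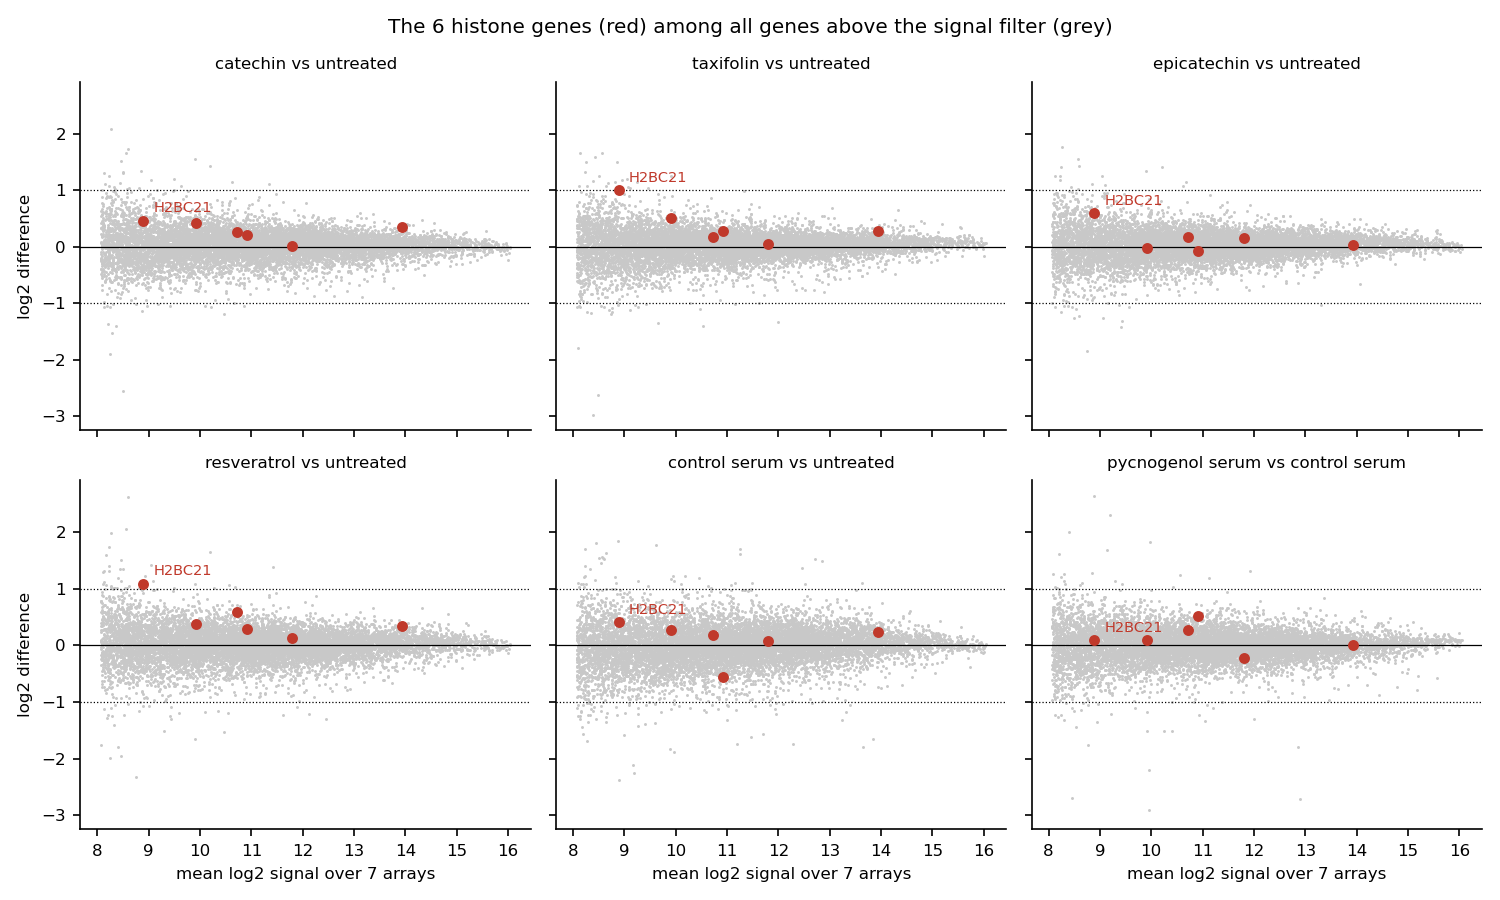
Each panel plots the log2 difference of the 9888 genes above the signal filter (grey) against their mean log2 signal over 7 arrays, with the 6 histone genes in red and dotted lines at 2-fold. H2BC21 passes the upper line with taxifolin at 1.00 and with resveratrol at 1.09, while the other 5 genes stay between the lines in all panels.

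The probe sets of H2BC5 disagreed in direction in 4 of the comparisons with the untreated array. Their log2 differences, first probe set then second, were 0.26 and -0.46 with catechin, 0.18 and -0.0031 with taxifolin, 0.17 and -0.20 with epicatechin, 0.59 and 0.10 with resveratrol and 0.18 and -0.10 with control serum. Such disagreement was common, since the 2 brightest probe sets of a gene had the same sign in 52.0% to 64.3% of 4702 genes over the comparisons. The gap of the H2BC5 pair was 0.73 with catechin, against a median gap of 0.195 over those genes, 0.37 with epicatechin against 0.204, and 0.49 with resveratrol against 0.211. It was 0.18 with taxifolin against a median of 0.198, so the pair did not stand apart there. With pycnogenol serum against control serum the values were 0.28 and 0.17, both above 0. Over the 7 arrays the log2 signals of both probe sets correlated with r = 0.31, which is a description of arrays that share processing. With the second probe set in place of the first, the median of the 6 genes was 0.28 with catechin, 0.0023 with epicatechin and 0.31 with resveratrol, and this setting was chosen after seeing the data.

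By suffix, the 2 _at probe sets (H1-2 and H2BC12), the 2 _s_at ones (H2AC6 and H2BC21) and the 3 _x_at ones (H2BC5, read by 2, and H2BC9) differed in size, and in 3 of the 7 comparisons their medians also differed in sign. With resveratrol the medians were 0.23 for _at, 0.69 for _s_at and 0.38 for _x_at, and all 7 probe sets lay above 0. With taxifolin they were 0.16, 0.64 and 0.18, and the second H2BC5 probe set lay at -0.0031. With catechin they were 0.18, 0.33 and 0.26, and the second H2BC5 probe set lay at -0.46. With epicatechin they were 0.093, 0.26 and -0.021. With control serum against untreated they were 0.15, -0.073 and 0.18, and with pycnogenol serum against control serum -0.11, 0.30 and 0.17. Over all probe sets of a single gene above the filter, the class medians ran from -0.013 to 0.031 over these comparisons. Both calls past 2-fold came from the _s_at probe set of H2BC21, while the share of all _s_at probe sets past 2-fold in either direction was 0.581% with taxifolin and 1.01% with resveratrol. With so few probe sets in a class, the class and the gene cannot be told apart.

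Across the arrays, H2BC9 and H2BC12 were the most alike pair of the 7 probe sets, with r = 0.93 on the log2 scale over 7 arrays, although one is an _x_at and the other an _at probe set. Of the 21 pairs 16 had r above 0, the median was 0.33 and the lowest was -0.29, between H1-2 and H2BC9. Epicatechin and untreated were the 2 lowest arrays for H2BC5 on its first probe set, H2BC9 and H2BC12, or 3 of 6 genes, against 8.1% of all genes, a rule chosen after the values were seen. The second H2BC5 probe set had catechin and epicatechin lowest. Of 3 H2B probe sets above the filter that the annotation gives to 5 genes each, 208490_x_at alone had epicatechin and untreated lowest. It read 1311 with catechin, 1423 with taxifolin, 1127 with epicatechin, 1493 with resveratrol, 1342 with pycnogenol serum, 1267 with control serum and 1141 untreated. The second, 208523_x_at, had epicatechin at 462 and catechin at 564 as its lowest arrays, and the third, 214455_at, had control serum lowest at 177. Whether probes of these sets bind each other's transcripts was not tested.

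**Figure D4:**
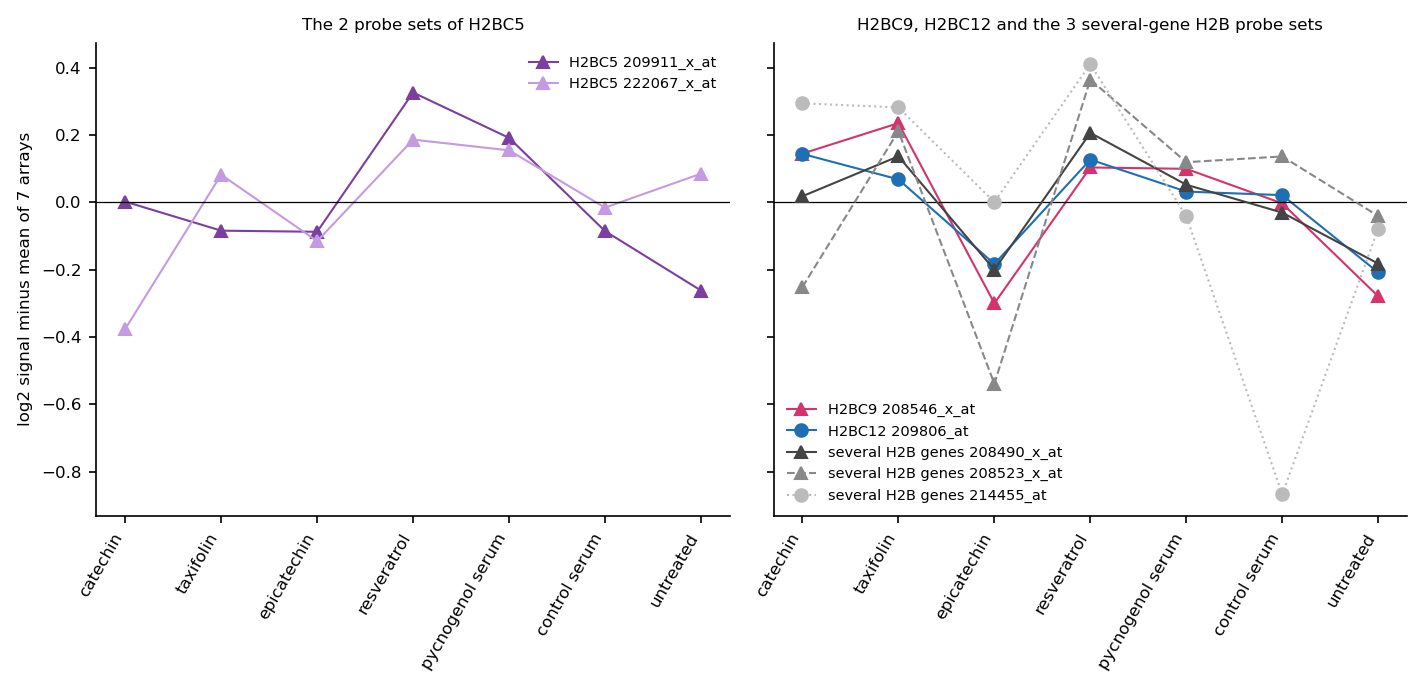
Points give log2 signal minus the mean over 7 arrays of the same probe set, for the H2BC5 pair (left) and for H2BC9, H2BC12 and the 3 probe sets given to 5 H2B genes each (right), and lines only join the points of a probe set. On the right the epicatechin and untreated arrays are lowest for H2BC9, H2BC12 and 208490_x_at but not for 208523_x_at and 214455_at, and on the left catechin is lowest on 222067_x_at at 1060 and untreated on 209911_x_at at 1405.

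Of 20 histone probe sets that the annotation gives to several genes, 9 passed the filter, 3 of them for H2B. With resveratrol against untreated the 3 H2B sets lay between 0.39 and 0.49, and with taxifolin between 0.25 and 0.36, so all 3 lay above 0 in both. With catechin they ran from -0.21 to 0.37 and with epicatechin from -0.50 to 0.078. One of them, 214455_at, resembled H2AC6 in being low with control serum, with 314 with pycnogenol serum, 177 with control serum and 307 untreated. The 6 several-gene sets of the other histone classes had a median of 0.046 with taxifolin and -0.034 with resveratrol, with 3 of 6 above 0 in both.

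The other replication-dependent histone genes above the filter did not share one direction, with 2 of 4 above 0 in every comparison and 0 of 4 past 2-fold. All 4 are named here. With resveratrol, H2BC4 was at 0.63 and H2BC6 at 0.49, while H4C11 was at -0.40 and H2AC14 at -0.35. With catechin H2BC4 was at 0.48 and H4C11 at 0.46. With taxifolin H2AC14 was at -0.56 and H4C11 at -0.29, and with epicatechin H2AC14 was at -0.40 and H4C11 at 0.38. Both H2B genes of these 4 lay above 0 with taxifolin and resveratrol, at 0.21 for H2BC4 and 0.074 for H2BC6 with taxifolin.

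Genes listed as replication-independent histone variants, many of which are made throughout the cell cycle, gave no 2-fold difference either. Of 11 listed, 9 were on the array and 8 passed the filter. Their median was 0.063 with catechin, 0.058 with taxifolin, 0.024 with epicatechin, 0.068 with resveratrol and -0.014 with control serum. H2AX, which is phosphorylated at DNA breaks, was at 0.32 with resveratrol and 0.48 with control serum, and H2AZ2, a variant found at gene starts, at 0.32 with taxifolin.

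Genes that transcribe and process histone messages gave no 2-fold difference, with 20 of 21 above the filter. Their median was 0.055 with catechin, -0.0062 with taxifolin, -0.021 with epicatechin, 0.0056 with resveratrol, 0.19 with control serum and -0.0067 with pycnogenol serum against control serum. CCNE2, a cyclin that activates CDK2 at the start of S phase, was at 0.52 with catechin, 0.31 with taxifolin and 0.72 with resveratrol, and its relative CCNE1 was at -0.79 with taxifolin and -0.41 with epicatechin. With control serum against untreated, 14 of the 20 lay above 0 and 6 below, against 51.3% of all genes above 0. CDC25A had the largest difference there, at 0.62. SYMPK, a scaffold of the histone cleavage complex, was at -0.56 with control serum against untreated and 0.66 with pycnogenol serum against control serum. Those comparisons share the control serum array.

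DNA replication genes, which are on in the same phase as these histones, had 24 of 25 members above the filter. Members above 0 numbered 16 of 24 with catechin, against 57.6% of all genes, 17 with taxifolin against 57.2%, 16 with epicatechin against 57.3%, 20 with resveratrol against 54.8% and 17 with control serum against 51.3%. With pycnogenol serum against control serum 13 of 24 did, against 51.6%. The medians of the list were 0.10 with catechin, 0.043 with taxifolin, 0.059 with epicatechin, 0.16 with resveratrol and 0.13 with control serum. With resveratrol TK1, thymidine kinase, was at 0.46 and CDT1, a replication licensing factor, at 0.44. FEN1, the flap endonuclease, alone passed 2-fold, at 1.11 with control serum, where 1.2% of all genes did in either direction, and was at -0.77 with pycnogenol serum against control serum. PCNA, the polymerase clamp, was at 0.30 with taxifolin.

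Among 13 histone chaperones, which carry histones to and from DNA, DAXX was higher by 1.43 with catechin and 1.66 with resveratrol, read from an _x_at probe set, and no other passed 2-fold, against 0.455% and 0.728% of all genes in either direction. DAXX was also higher by 0.81 with epicatechin, 0.45 with taxifolin and 0.66 with control serum. It read 1559 with pycnogenol serum and 629 untreated, so the untreated array that these differences share was its lowest. The list median was 0.049 with catechin and 0.13 with resveratrol. Of 7 cell cycle exit genes above the filter, 2 passed 2-fold downward in the control serum array, against 0.758% of all genes, CCNG2, an atypical cyclin, at -1.07 and CDKN2D, a CDK4 and CDK6 inhibitor, at -1.05 with a signal of 153 against 315 untreated. With pycnogenol serum against control serum CDKN2D was at 1.27, a comparison that shares the same low control serum signal, which lies under the filter. CDKN1A, the p21 inhibitor, was at -0.37 with catechin.

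By Pearson's r over the 7 arrays, the genes most like the mean log2 signal of the 6 histone genes were KAT5, a histone acetyltransferase, at 0.97, RSAD1 and NDUFA8 at 0.96, and TPI1, a glycolytic enzyme, and SLC25A16, a mitochondrial carrier, also at 0.96. For H2BC21 alone they were HHIP-AS1 at 0.99, and PSMD4, a proteasome ubiquitin receptor, PIGT, CALB2, the calcium-binding calretinin, and RSAD1, all at 0.94. With 9882 genes searched over 7 arrays, high values arise easily, and the order is a description.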

How the data were processed

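The authors deposited 1 signal intensity per probe set and array, made with MAS5 per the submitters' processing notes; its version and detection calls were not given in the sources used here. With 2% of values trimmed from either end, every array averaged 1000, the value to which they had been scaled. Total RNA was labelled with biotin per the labels' protocols.

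Probe sets were named with the platform's annotation table, and symbols were updated from RefSeq (GRCh38.p14). Of 54675 probe sets, 41097 had 1 gene, 1801 had several and 11777 had none; 62 control probe sets were left out. Signals under the 25th percentile, 34.9, were raised to it before taking log2. For a gene with several probe sets, the one of highest mean was used, and the 9888 genes at or above the median gene signal, 269, were the background. Differences are first minus second array, and a call is a difference of at least 2-fold. The number of arrays limits the precision. The call steps were tested on simulated data with changes well past 2-fold. That test does not bear on values close to the threshold.

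Named genes were the 6 members, list members past 2-fold or else the 2 with the largest absolute difference, from which the text shows a selection, and the 5 genes most alike. Members and lists were chosen with earlier results of these data known. Alternatives were quantile normalization, pairwise loess (span 0.3), median centring, other floors, filters, fold thresholds, references and probe sets. Python 3.11.15, numpy 2.4.6, pandas 2.3.3, scipy 1.17.1 and statsmodels 0.14.6 were used.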

Additional observations from a re-analysis of the deposited data

How the results depend on the processing

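No paired analysis was possible because each group held 1 array. A median of the 6 genes counts as changed here when it moved by at least 0.1 (log2) or changed sign. Of 152 checks on medians and counts, 93 gave the identical value. In many of them the setting could not alter these genes, since all members lie far above every floor tried. Other fold thresholds entered these checks only as counts of genes past them, which can change. Of the remaining 59, 35 moved by less than 0.1, 21 moved further and 3 changed sign. The 21 hold both medians and counts of genes past the threshold, and a count moved when it gained or lost a gene. Without _x_at and _s_at probe sets 2 genes remain, and the median was 0.18 with catechin, 0.16 with taxifolin, 0.23 with resveratrol, 0.068 for taxifolin against epicatechin and -0.11 with pycnogenol serum against control serum, with 0 genes past 2-fold. With _x_at probe sets only, the resveratrol median was 0.49 and 0 genes passed. Both of these settings leave out H2BC21, the only gene past 2-fold, so their counts of 0 were fixed in advance. With the mean of the other arrays without added serum as reference, the medians were 0.057 with catechin, 0.14 with taxifolin, -0.15 with epicatechin, 0.18 with resveratrol and -0.031 with control serum, and 0 genes passed 2-fold. Pycnogenol serum set against the untreated culture gave a median of 0.31. Median centring gave 0.37 with control serum and shifted all genes by 0.17 there. Pairwise loess left 0 genes past 2-fold with taxifolin, where H2BC21 was at 0.99. At 1.5-fold 1 gene passed with epicatechin and 2 with resveratrol, where H2BC5 passed only on its first probe set. At 3-fold 0 passed. The causes were not tested, apart from the fewer genes read where probe sets were left out. Of 442 checks on single genes, 266 repeated the value. Many did so because of the floors or because other fold thresholds leave the differences as they are. For others, a choice of probe set can alter H2BC5 alone. Of the other 176, 128 moved by less than 0.1 and 48 by at least that. The sign changed in 26, of which 12 moved by less than 0.1 around 0.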
